A study of Mus musculus with 7 samples.

Results

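The respiratory chain genes were followed by cell type in single cells of mouse cortex. The set took every symbol that starts with mt-Nd, mt-Co, mt-Atp, mt-Cytb, Nduf (leaving out the Ndufaf assembly factors), Uqcr, Atp5 or Cox4 to Cox8, together with Sdha, Sdhb, Sdhc and Sdhd. That gave 96 of the 19614 symbols in the 7 deposited tables, of which 13 are encoded in the mitochondrial genome and 83 in the nucleus. Complex I has 45 of them, complex II 4, complex III 9, complex IV 20 and complex V, the ATP synthase, 18. The complexes were assigned by symbol, so all counts by complex hold Ndufa4 and Ndufa4l2 under complex I. All were listed in all 7 tables except Cox8b, which was listed in 6. In the GENCODE annotation of GRCm38, 95 of the 96 were found, the nuclear ones on 19 chromosomes.

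The respiratory chain passes electrons from NADH (complex I) and succinate (complex II) through complex III to oxygen at complex IV, and the proton gradient that this builds drives ATP synthesis by complex V. Each complex except complex II joins core subunits made inside the mitochondrion to many subunits imported from the cytosol, so 2 genomes have to supply it. Several nuclear subunits come as isoforms from separate genes: Cox4i2, Cox6a2 and Cox7a1 are best known from lung or from heart and skeletal muscle, and Ndufa4l2 is a hypoxia-induced relative of Ndufa4.

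Cells came from the ventromedial prefrontal cortex (PFC) or the motor cortex (MC) of P30 mice of strain B6129SF1/J kept in 12 h light and 12 h dark. All animals carried Opn4-Cre/+, which puts Cre recombinase under the melanopsin gene of light-sensing retinal ganglion cells. The CTRL group was Opn4-Cre/+; Brn3b-+/+ and the DTA group was Opn4-Cre/+; Brn3b-zDTA/+, in which Cre switches on diphtheria toxin A in the retinal cells that also express Brn3b. There were 2 PFC CTRL, 3 PFC DTA, 1 MC CTRL and 1 MC DTA libraries (10x Genomics 3' chemistry), each from its own brain per the labels' protocols. The p-values of the genotype and area comparisons measure the spread between these libraries. The fits between classes and subclasses have library as a term. Their p-values measure the scatter left after shifts common to all classes of a library, with 1 spread per gene shared by all classes.

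The libraries held 6180059 to 30972905 counts of unique molecular identifiers in 1936 to 9879 cells. Every deposited cell had under 10% of its counts in mt- genes, with the highest cell of each library at 9.97% or above, so the mitochondrial share of a class has this ceiling. PFC CTRL 1, PFC DTA 2 and MC DTA 1 were deep, with 11571, 12559 and 15918 counts in the median excitatory neuron against 2910 to 5389 in the other 4. Cells were clustered without the 96 genes and without any mt- gene, and a name such as pericyte stands for cells like that type. All of each class's own markers were detected. RNA of excitatory neurons was present in every other class: the summed level of their 7 markers lay between 51.0 and 1317 CPM (counts of a gene scaled to 1e6 counts of the sum) outside excitatory neurons and between 4065 and 8237 CPM within them. Astrocytes fell mostly in cluster 4 in PFC CTRL 2, PFC DTA 1 and MC CTRL 1 and in cluster 8 in the other 4 libraries, and microglia divided the same way between clusters 10 and 16. The largest number of cell barcodes that 2 libraries shared was 92. PFC DTA 3 held 2321 cells that could not be named, against 45 to 321 in the others, and these entered no class.

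Of the nuclear genes, 66 of 83 had a promoter in the RefSeq table of GRCm38.p6. The 3 shown here belong to Atp5g1, Atp5g2 and Atp5g3, which encode the same mature subunit c of the ATP synthase rotor and which took different shares in neurons, glia and vascular cells. Each run is the 250 bases before the RefSeq start on the minus strand, at chr11:96075632-96075881, chr15:102671048-102671297 and chr2:73911327-73911576. Capitals mark matches on either strand to TGCGCA and GCATGCGC (cores of the NRF1 motif) or to ACGTG (the hypoxia response core, which CACGTG also contains).
Atp5g1: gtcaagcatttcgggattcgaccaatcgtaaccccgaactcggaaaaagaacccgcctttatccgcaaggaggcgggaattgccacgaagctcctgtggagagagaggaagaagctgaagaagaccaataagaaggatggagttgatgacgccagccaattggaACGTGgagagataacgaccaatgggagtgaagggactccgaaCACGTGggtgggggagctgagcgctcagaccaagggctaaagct
Atp5g2: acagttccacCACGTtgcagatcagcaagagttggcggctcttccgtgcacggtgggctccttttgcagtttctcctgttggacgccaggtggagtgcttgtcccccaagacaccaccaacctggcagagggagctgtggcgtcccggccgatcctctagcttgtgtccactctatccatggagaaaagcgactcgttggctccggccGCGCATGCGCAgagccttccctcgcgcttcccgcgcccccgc
Atp5g3: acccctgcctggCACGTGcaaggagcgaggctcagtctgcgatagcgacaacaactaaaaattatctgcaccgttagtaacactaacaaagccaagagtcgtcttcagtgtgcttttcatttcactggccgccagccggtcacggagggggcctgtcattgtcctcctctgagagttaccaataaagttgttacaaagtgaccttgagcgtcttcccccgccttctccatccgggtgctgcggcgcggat
The NRF1 core stands in the Atp5g2 window and in neither of the other two windows, and the hypoxia response core stands in all 3. Over the 71 promoters of the set, TGCGCA was found in 19.7%, GCATGCGC in 11.3% and ACGTG in 19.7%, against 6.43%, 2.26% and 16.6% of all 32851 promoters in the table. CCGGAAG, the core bound by ETS factors such as GABPA, was found in 16.9% against 6.91%, and AAGATGG, the YY1 core, in 1.41% against 4.49%. The promoters of the set had a median of 14 CpG dinucleotides against 6 in all, and a match is a description of the letters only.

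Inhibitory neurons gave the largest share of their counts to nuclear respiratory chain genes, and astrocytes were highest or near highest in the mitochondrial part. The nuclear share was 4.89% ± 0.67 (SD, n = 7 libraries) in inhibitory neurons, ranking first of all classes in 7 of 7 libraries. It was 4.09% ± 0.48 in excitatory neurons and 3.88% ± 0.37 in astrocytes, and lowest in oligodendrocytes (2.47% ± 0.20), endothelial cells (2.48% ± 0.25) and microglia (2.13% ± 0.31). The neighbours excitatory neuron and astrocyte, and oligodendrocyte and endothelial cell, lie within their spread.

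The order of the mitochondrial part was another one. Astrocytes had 4.90% ± 0.87 of their counts in the 13 mitochondrial genes (n = 7), smooth muscle cells 4.71% ± 0.31 (n = 5), inhibitory neurons 4.35% ± 0.93 and oligodendrocytes 3.75% ± 0.51 (n = 7 each). By library, the astrocyte share was 4.25% and 4.0% in the PFC of CTRL, 4.60%, 4.84% and 4.39% in the PFC of DTA, 6.24% (CTRL) and 6.0% (DTA) in MC. The inhibitory share was 4.48% and 4.75% in the PFC of CTRL, 3.37%, 4.23% and 3.19% in the PFC of DTA, 5.97% (CTRL) and 4.46% (DTA) in MC. So inhibitory neurons stood above astrocytes in 2 of 7 libraries, both of PFC CTRL, and below them in the other 5. The rest lay lower, with excitatory neurons at 3.68% ± 0.52, microglia at 3.26% ± 0.56, newly formed oligodendrocytes at 3.08% ± 0.40, oligodendrocyte precursors at 3.01% ± 0.54, pericytes at 2.85% ± 0.49 (n = 6) and endothelial cells at 2.60% ± 0.28.

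The balance between the genomes differed between the classes. Written as log2 of the mitochondrial over the nuclear share, it was 0.61 ± 0.21 in microglia, 0.59 ± 0.13 in oligodendrocytes, 0.51 ± 0.15 in smooth muscle cells and 0.32 ± 0.17 in astrocytes, above 0 in every library that held the class. It was -0.31 ± 0.21 in pericytes, -0.16 ± 0.27 in excitatory neurons and -0.19 ± 0.41 in inhibitory neurons, where the sign differed between libraries. In inhibitory neurons it ran from -0.82 in PFC DTA 1 to 0.34 in MC CTRL 1. The 3 deep libraries lay between -0.26 and -0.17, inside the range of the shallow ones.

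A fit across all genes then compared the classes gene by gene. Its folds rest on scaled log levels and need not follow the order of the shares. Microglia, with a lower mean mitochondrial share than both neuron classes, had a higher median fold of the mitochondrial members (0.33 against -0.08 in excitatory and 0.08 in inhibitory neurons). Oligodendrocytes, among the lowest in nuclear share, had more nuclear members higher (30) than lower (19). Counts were summed per library and class, and a quasi-likelihood test in edgeR, with p-values adjusted by Benjamini and Hochberg at 0.05, set the log level of each class against the mean log level of the other 9. After a filter on low counts 11732 genes were tested, of which 92 belong to the set (12 mitochondrial, 80 nuclear). Cox7a1, Cox7b2, Cox8b and mt-Nd6, the only mitochondrial member on the minus strand, were too low. In astrocytes 9 mitochondrial and 68 nuclear members were higher and 1 nuclear member was lower, against 33.7% of all genes higher and 24.8% lower. The median log2 fold was 0.54 for the mitochondrial and 0.41 for the nuclear members beside 0.02 for all genes. Inhibitory neurons were higher for 57 nuclear members and lower for 5 (38% and 31.4% of all genes), with a median of 0.39 beside 0.01, but only 2 mitochondrial members, mt-Nd1 and mt-Nd5, were higher. Excitatory neurons were higher for 50 nuclear members and lower for 14 (41.3% and 31%), with 2 mitochondrial members higher and 1 lower.

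In microglia, oligodendrocytes and smooth muscle cells most mitochondrial members were higher and 0 were lower. Microglia were higher for 10 of 12 mitochondrial members and 6 of 80 nuclear ones and lower for 0 and 49 (27.7% of all genes higher, 26.6% lower), with medians of 0.33 and -0.27 beside -0.10 for all genes. Oligodendrocytes were higher for 10 mitochondrial and 30 nuclear members and lower for 0 and 19 (33.9% and 31.6%), with medians of 0.51 and 0.04 beside -0.08. Smooth muscle cells were higher for 11 and 15 and lower for 0 and 8 (17.4% and 9.07%), with medians of 0.59 and 0.03 beside -0.16. The oligodendrocyte split turned from 40 higher and 19 lower to 29 and 34 with RLE size factors, which moved the median of all genes from -0.08 to -0.26, and to 31 and 40 with DESeq2.

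The precursors of oligodendrocytes and the endothelial cells were low in both parts. Oligodendrocyte precursors were lower for 12 of 12 mitochondrial and 53 nuclear members and higher for 2 nuclear ones (18.5% of all genes lower, 24.4% higher), and newly formed oligodendrocytes were lower for 11 and 42 and higher for 0 and 7 (20.4% and 17.9%). The mitochondrial medians were -0.63 and -0.52, so along the labels from precursor over newly formed to mature oligodendrocyte they read -0.63, -0.52 and 0.51. In the mitochondrial shares of counts given above these classes lay closer together. Endothelial cells were lower for 7 mitochondrial and 54 nuclear members and higher for 0 and 4 (28.4% and 31.7%). Pericytes were lower for 10 mitochondrial and 13 nuclear members and higher for 0 and 16 (13.3% and 16.6%), with medians of -0.52 and -0.07 beside -0.14. Scaling to the counts outside mt- genes changed the split from 52 higher and 15 lower to 59 and 5 in excitatory neurons, from 16 and 23 to 13 and 33 in pericytes, and from 26 and 8 to 21 and 16 in smooth muscle cells. It moved the median of all genes in these 3 classes to 0.19, -0.19 and -0.26. Without PFC DTA 3 the split was 41 and 21 in excitatory neurons and 13 and 12 in smooth muscle cells, and without PFC DTA 2 it was 12 and 37 in pericytes and 19 and 20 in smooth muscle cells.

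The nuclear counts ran through all complexes. In astrocytes 32 nuclear members of complex I, 4 of complex II, 8 of complex III, 12 of complex IV and 12 of complex V were higher. In microglia 26, 1, 5, 9 and 8 of them were lower. The mitochondrial members did not move as 1 block within a class: in astrocytes their log2 folds ran from -0.06 for mt-Nd3 to 0.78 for mt-Co1, and in endothelial cells from -0.72 for mt-Co3 to 0.13 for mt-Nd4l. In microglia mt-Nd4l (0.89), mt-Nd1 (0.69) and mt-Nd5 (0.57) had the largest folds, and in the neuron classes mt-Nd1 and mt-Nd5 had them, at 0.32 and 0.33 in excitatory and 0.52 and 0.31 in inhibitory neurons. Oligodendrocytes showed another pattern, with mt-Co3 at 0.72 and mt-Co1 at 0.64 beside 0.05 for both mt-Nd1 and mt-Nd5. Genes that respond to dissociation and activity moved with some classes: 12 of 12 of these genes (Fos, Jun, Atf3 and others) were higher in pericytes and in endothelial cells, 10 in smooth muscle cells and 8 in microglia, and their part in the result was not tested.

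**Figure D1:**
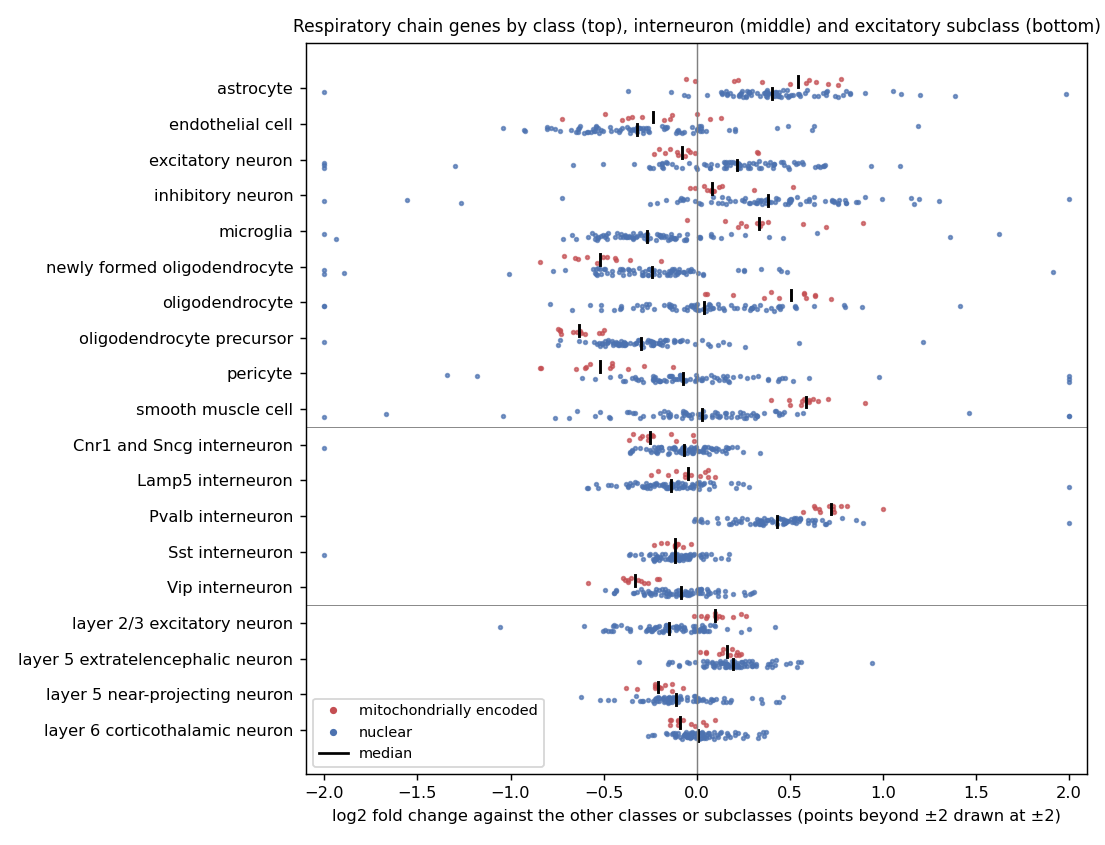
Log2 fold of each tested respiratory chain gene in a class against the mean of the other classes, mitochondrially encoded and nuclear genes drawn apart. Both parts lie above 0 in astrocytes and below 0 in oligodendrocyte precursors, and the mitochondrial part alone lies above 0 in microglia, with 10 of 12 members called higher.

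Single nuclear subunits were far from the rest of their class. In astrocytes, among the called nuclear members with a mean of at least 20 CPM there, the largest folds were those of Ndufa12 and Ndufc2, both accessory subunits of complex I, at log2 1.20 ± 0.07 (SE) and 1.10 ± 0.07 (edgeR's quasi-likelihood test, adjusted p = 3.6e-26 and 6.84e-26). Ndufa12 stood at 351 to 621 CPM in astrocytes over the 7 libraries, with a mean of 499 against 245 CPM in the other classes. Cox7a2l, which joins complexes III and IV into supercomplexes, was the only nuclear member lower in astrocytes, with 310 against 450 CPM.

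Microglia were the reverse for Cox7a2l. Its level there was 701 and 916 CPM in PFC CTRL, 811, 842 and 509 CPM in PFC DTA, 748 (CTRL) and 734 CPM (DTA) in MC. All 7 lay above the highest astrocyte library (397 CPM), and the log2 fold was 1.36 ± 0.06 (adjusted p = 8.84e-33, edgeR's quasi-likelihood test). Of the Cox7a counts (Cox7a1, Cox7a2 and Cox7a2l), Cox7a2l took 64.9% ± 6.9 in microglia and 51.5% ± 5.8 in endothelial cells. Newly formed oligodendrocytes were lower for it, at 201 to 295 CPM (log2 fold -1.01). In microglia Ndufb2 and Ndufb9, both in the membrane arm of complex I, were lower, at log2 -0.72 and -0.67, and Ndufa9 was higher at 0.65.

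The other glial and vascular classes had their own members at the ends. Oligodendrocytes were higher for Ndufa3 (421 against 334 CPM) and Ndufs7 of complex I, at log2 0.79 and 0.63, and lower for Cox7b, Ndufa1 and Atp5g3 at -0.67, -0.57 and -0.51. Their precursors were lower for Cox4i1, Atp5d and Cox7a2, at -0.73, -0.63 and -0.60, and higher for Ndufa4 (0.26). Newly formed oligodendrocytes were higher for Atp5e and Ndufs1 (0.49 and 0.45) and lower for Sdha (-0.77), the flavoprotein of complex II. Endothelial cells were lower for Cox8a, with 727 against 1553 CPM (-0.92), Ndufa13 and Ndufb2 (both -0.80), and higher for Ndufa7 (0.63) and Atp5j (0.43). Smooth muscle cells were lower for Ndufs4 of complex I, at -1.04 ± 0.19 on 39 counts in all, Ndufc2 (-0.76) and Ndufa3 (-0.68), and higher for Uqcrh (0.57). Pericytes were lower for Ndufa3 (-0.61) and Ndufc2 (-0.55).

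Ndufa4, a subunit of complex IV first assigned to complex I, stood at 1659 ± 215 CPM in excitatory and 2211 ± 291 CPM in inhibitory neurons (n = 7), with log2 folds of 0.94 ± 0.10 and 1.30 ± 0.09 (adjusted p = 2.34e-13 and 3.72e-19, edgeR's quasi-likelihood test). Its lowest inhibitory library, 1685 CPM in PFC CTRL 2, lay above the highest astrocyte library at 1227 CPM. Excitatory neurons were also higher for Cox7b (0.69) and lower for Sdhc (-0.66), the membrane anchor of complex II. Inhibitory neurons were lower for Ndufa9 (-0.25) and Sdhc (-0.21).

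The subunit c genes whose promoters are printed above divided between the classes. Atp5g1 was high in both neuron classes. In excitatory neurons it stood at 1160 and 1029 CPM in PFC CTRL, 1248, 967 and 870 CPM in PFC DTA, 1059 (CTRL) and 1049 CPM (DTA) in MC. The mean in the other classes, inhibitory neurons among them, was 504 CPM, and the log2 fold was 1.09 ± 0.06 (adjusted p = 5.31e-27, edgeR's quasi-likelihood test). In inhibitory neurons it stood at 971 to 1359 CPM, with a log2 fold of 1.15 ± 0.06. It made up 54.9% ± 3.1 of the counts of the 3 genes in excitatory neurons and 51.7% ± 3.2 in inhibitory ones. Atp5g3 was higher in inhibitory neurons, with 604 to 939 CPM against 306 CPM (1.20 ± 0.08), and took 34.2% ± 3.3 of the 3. Atp5g2 was lower in both neuron classes (-0.50 in excitatory, -0.72 in inhibitory). It held 45.0% ± 3.5 of the 3 in endothelial cells, 44.5% ± 11.4 in microglia and 43.0% ± 2.8 in oligodendrocytes.

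Cox6a2, the heart and muscle form of a complex IV subunit (chr7:128205435-128206387, minus strand), was an interneuron gene in these data. In inhibitory neurons it stood at 169 and 188 CPM in PFC CTRL, 172, 180 and 178 CPM in PFC DTA, 250 (CTRL) and 232 CPM (DTA) in MC. In the other classes its mean was 4.88 CPM, and the fitted log2 fold was 5.31 ± 0.19 (adjusted p = 2.28e-33, edgeR's quasi-likelihood test). Fitted folds of genes at or near 0 in several classes depend on the prior count, so levels are given for Cox6a2, Cox4i2, Ndufa4l2 and Cox6b2 elsewhere. Microglia had 14.1 ± 7.7 CPM of Cox6a2 (59 counts) and excitatory neurons 3.12 CPM on average.

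Among interneurons the gene was graded. Pvalb interneurons had 414 and 416 CPM of Cox6a2 in PFC CTRL, 497, 476 and 450 CPM in PFC DTA, 450 (CTRL) and 439 CPM (DTA) in MC, where it made up 25.0% ± 1.3 of the counts of Cox6a1 and Cox6a2. Lamp5 interneurons followed with 106 to 320 CPM (16.5% ± 6.0), and Vip interneurons with 55.2 ± 44.6 CPM. Sst interneurons had 12.6 ± 10.0 CPM and Cnr1 and Sncg interneurons 13.9 CPM on 14 counts, which do not differ beyond their spread. All 7 Pvalb values lay above the highest Lamp5 value (320 CPM in PFC DTA 3), and all 7 Lamp5 values above every Sst value. The partner Cox6a1 (chr5:115345642-115348981, minus strand) stood at 1352 ± 99 CPM in Pvalb interneurons, so it remained the main form there.

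Ndufa4l2 (chr10:127514967-127517154, plus strand) belonged to mural cells, the contractile cells of small vessels. In pericytes it stood at 2555 and 1735 CPM in PFC CTRL, 2494 and 2078 CPM in PFC DTA 2 and 3, 2045 (CTRL) and 2449 CPM (DTA) in MC. PFC DTA 1 had under 20 pericytes and gave no value. Smooth muscle cells had 366 to 1020 CPM (n = 5), and in fibroblasts the level was 174 ± 35 CPM (n = 3). Endothelial cells had 8.8 ± 6.8 CPM, and in microglia 0 counts were found, which allows up to 0.744 CPM. The smooth muscle class also carried 4632 to 9948 CPM of the 6 pericyte markers and 1855 to 3250 CPM of the 6 endothelial markers, and the part of these in its values was not tested.

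The partner Ndufa4 (chr6:11900292-11907497, minus strand) was lowest in pericytes, where Ndufa4l2 was highest. It was also low in classes with almost no Ndufa4l2. Pooled over libraries it stood at 410 CPM in pericytes and 608 CPM in smooth muscle cells, beside 527 CPM in oligodendrocytes and 568 CPM in microglia. In pericytes Ndufa4 stood at 153 CPM in PFC CTRL 1, 624 CPM in PFC CTRL 2, 231 CPM in PFC DTA 2, 471 CPM in PFC DTA 3, 693 (CTRL) and 175 CPM (DTA) in MC. The log2 fold was -1.34 ± 0.15 (adjusted p = 1.55e-11, edgeR's quasi-likelihood test), with 391 against 1059 CPM. The summed excitatory neuron markers in the same 6 pericyte sums were 102, 926, 292, 497, 1317 and 373 CPM. PFC CTRL 1, PFC DTA 2 and the MC DTA library were thus low in both. Over pericytes Ndufa4l2 made up 84.8% ± 9.5 of the counts of the pair, over smooth muscle cells 51.0% ± 15.8, and over fibroblasts 16.2%.

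Cox4i2, the hypoxia-responsive form of complex IV subunit 4, had nearly the same address. Pericytes had 712 and 696 CPM in PFC CTRL, 1138 and 713 CPM in PFC DTA 2 and 3, 650 (CTRL) and 1141 CPM (DTA) in MC, and there it took 40.7% ± 9.6 of the counts of Cox4i1 and Cox4i2. In smooth muscle cells it took 8.0% ± 2.1 (135 ± 46 CPM), in astrocytes 0.562% (8.4 ± 3.7 CPM) and in endothelial cells 0.361%. Newly formed oligodendrocytes had 0 counts. Among the 10 classes Cox6b2 made up 4.1% ± 1.8 of the Cox6b pair in pericytes and 3.3% ± 2.1 in newly formed oligodendrocytes, on 30 and 37 counts. Cox7a1, the muscle form of its subunit, stayed under 2% of the Cox7a counts in all 10 classes, with its highest share, 1.42%, in astrocytes. Cox7b2 reached 1.66% of the Cox7b pair in astrocytes, and Cox8b did not pass 0.152% of the Cox8 counts in any class.

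**Figure D2:**
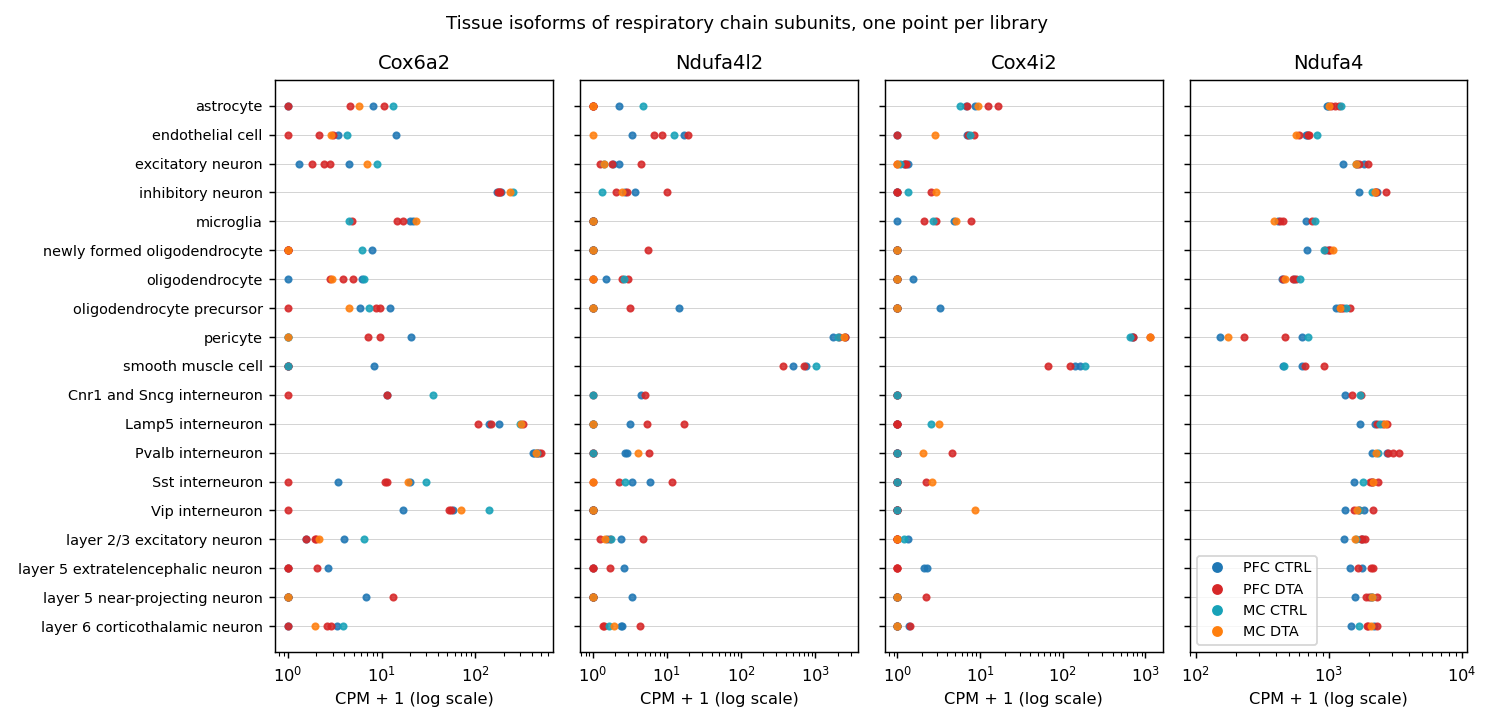
CPM plus 1 on a log scale for Cox6a2, Ndufa4l2, Cox4i2 and Ndufa4 by class and subclass, 1 point per library. Cox6a2 is high in Pvalb and Lamp5 interneurons (106 to 497 CPM), Ndufa4l2 and Cox4i2 are high in pericytes and smooth muscle cells, and Ndufa4 is lowest in 3 pericyte sums (153 to 231 CPM).

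The genes whose pattern over the 21 pooled class and subclass sums was most like Cox6a2 were Akain1, Idnk, Gad1, Gad2 and Btbd11, with Pearson's r of log2(CPM + 1) from 0.84 to 0.78 among 12200 genes. Those most like Ndufa4l2 were Carmn, Ifitm1, Tfap2a, Pla2r1 and Frk, with r from 0.97 to 0.96. The sums of subclasses are drawn from the same 7 libraries, and these correlations are a description.

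Within the inhibitory class, Pvalb interneurons, the fast-spiking cells, were high in the whole chain. In the fit over 5 subclasses 7913 genes were tested, with 12 mitochondrial and 77 nuclear members. Pvalb interneurons were higher for 12 of 12 mitochondrial and 66 of 77 nuclear members and lower for 0 (26.5% of all genes were higher, 24.4% lower). The medians were 0.72 and 0.43 beside 0.00 for all genes. Their mitochondrial share of counts was 6.15% and 5.73% in the PFC of CTRL, 4.23%, 5.84% and 4.17% in the PFC of DTA, 7.59% (CTRL) and 6.22% (DTA) in MC. Their nuclear share was 6.57%, 4.90%, 7.57%, 6.05%, 5.82%, 5.59% and 5.56% in the same order. Both shares were above those of the other 4 interneuron subclasses and of the 4 excitatory subclasses tested below, in every library that held both.

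The high level reached every complex: 29 nuclear members of complex I, 3 of complex II, 8 of complex III, 12 of complex IV and 14 of complex V were higher in Pvalb interneurons. After Cox6a2 the largest folds were those of Atp5a1, the alpha subunit of the ATP synthase, and Atp5g3. Atp5a1 stood at 534 to 1247 CPM against a mean of 408 CPM in the other subclasses (log2 0.90 ± 0.07, adjusted p = 3.48e-19 by edgeR's quasi-likelihood test), and Atp5g3 at 837 to 1346 CPM against 606 CPM (0.86 ± 0.06). The mitochondrial folds ran from 0.57 for mt-Nd5 to 1.0 for mt-Nd4l. The 11 members that did not pass were Atp5g2, Atp5s, Ndufa13, Ndufa7, Ndufb4, Ndufb6, Ndufb7, Ndufc2, Ndufs3, Ndufs4 and Sdhb.

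The other subclasses were lower. Vip interneurons were lower for 10 mitochondrial and 22 nuclear members and higher for 0 and 2 (12.5% of all genes lower, 15.3% higher), led by Atp5g1 (-0.49), Uqcrh and Uqcrq (both -0.44), while Uqcrc1 (0.31) and Uqcrb (0.30) were higher. Lamp5 interneurons were lower for 1 and 25 and higher for 0 and 6 (15% and 14.8%), with Ndufa5, Atp5a1 and Cox5a at -0.59, -0.58 and -0.54 and Ndufa1 and Ndufa4 at 0.28 and 0.25. Sst interneurons were lower for 0 and 21 and higher for 0 (11.4% and 15%), with Cox6c and Ndufa11 both at -0.36. Cnr1 and Sncg interneurons were lower for 6 and 4 and higher for 0 and 1 (6.82% and 8.9%), with Ndufa4 at -0.36, Ndufa1 at -0.35 and Ndufa13 at 0.34. The Lamp5 count of 32 was 20 without PFC CTRL 1. The Sst count of 21 was 13 without a filter on low counts or without PFC DTA 2 and 12 without the MC CTRL library, and the Cnr1 and Sncg count of 10 was 7 without PFC CTRL 2, PFC DTA 2 or PFC DTA 3.

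Since Pvalb interneurons stand at the top of every mitochondrial contrast here, each other subclass is measured against a mean that includes them. Side by side, the mitochondrial shares were 3.89% ± 0.73 in Lamp5, 3.66% ± 0.80 in Sst, 3.17% ± 0.98 in Vip (n = 7 each) and 3.55% ± 1.25 in Cnr1 and Sncg interneurons (n = 4), which overlap. Their nuclear shares of 4.39% ± 0.50, 4.36% ± 0.69, 4.20% ± 0.60 and 4.13% ± 0.60 overlap too.

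Excitatory subclasses differed less. In the fit over 4 subclasses 11194 genes were tested, again with 12 mitochondrial and 77 nuclear members. Layer 5 extratelencephalic neurons, the large cells that project below the cortex, were higher for 4 mitochondrial and 44 nuclear members and lower for 0 and 1 (19.1% of all genes higher, 16.5% lower). Their nuclear share was 4.81% ± 0.64 (n = 5, all PFC), and Uqcr11, Uqcr10 and Atp5k led at log2 0.56, 0.54 and 0.54, with 989, 1029 and 742 CPM. Only Ndufs4 was lower (-0.31).

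Layer 2/3 neurons were higher for 4 mitochondrial and 4 nuclear members and lower for 0 and 40 (27.3% and 25.4%). Cox8a, at 2644 against 1983 CPM (0.42), Atp5g2 (0.28) and Cox7a2l (0.24) were higher there, and Sdha (-0.61), Ndufs1 (-0.50) and Ndufc2 (-0.49) were lower. Layer 5 near-projecting neurons were lower for 9 mitochondrial and 26 nuclear members and higher for 0 and 8 (20% and 18.9%). Atp5s (0.46), Sdha (0.44) and Ndufc2 (0.43) were higher and Uqcr11 (-0.62), Atp5d (-0.52) and Cox8a (-0.47) lower, the opposite of layer 2/3 for 3 of these genes. Layer 6 corticothalamic neurons were higher for 15 nuclear members and lower for 4 (18.9% and 15.4%), with Atp5b, Uqcrc2 and Uqcrc1 at 0.37, 0.36 and 0.35 and Ndufb3, Ndufb2 and Ndufa3 at -0.23, -0.17 and -0.16. This split was 12 and 10 with RLE size factors and with DESeq2.

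Lists of genes around the chain were counted in the same fits. In Pvalb interneurons, where 26.5% of all genes were higher and 24.4% lower, 15 of 16 citrate cycle genes were higher and 0 lower, with a median of 0.56 beside 0.00 for all genes and Ogdh at 1.33. Of 38 assembly factors 19 were higher and 4 lower, of 16 glycolysis genes 10 and 2, and of 5 biogenesis regulators 4 and 0, led by Ppargc1a (PGC-1α, the coactivator of mitochondrial biogenesis) at 2.63. In astrocytes 14 of 17 citrate cycle genes, 25 of 42 assembly factors and 12 of 17 glycolysis genes were higher, and 0, 1 and 0 were lower, beside 33.7% and 24.8% of all genes. Ppargc1a was higher there too (3.12). In microglia 12 of 17 citrate cycle genes were lower and 2 higher, and 14 of 42 assembly factors were lower and 2 higher, beside 26.6% of all genes lower and 27.7% higher. Oligodendrocytes, high in the mitochondrial members, were lower for 11 of 17 glycolysis genes and higher for 3, beside 31.6% and 33.9% of all genes, and Ppargc1a stood at -2.51.

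The DTA genotype was compared with CTRL in the PFC, 3 libraries against 2, in each of 8 classes. No member and no gene passed in any class: 0% of genes were called by edgeR's quasi-likelihood test in microglia, astrocytes, endothelial cells, both neuron classes, newly formed oligodendrocytes, oligodendrocytes and oligodendrocyte precursors. Between 3 and 5 members per class, and 114 to 450 genes, had an unadjusted p under 0.05, and DESeq2 also called 0 members in each class. In simulated counts of this design, 20 of 100 genes with a 2-fold change and 87 of 100 with a 4-fold change were recovered in astrocytes, and 69 and 95 in excitatory neurons, so 2-fold changes were often not detectable.

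Of the members higher in PFC DTA, the 2 short mitochondrial genes mt-Atp8 and mt-Nd4l had the smallest p in astrocytes, microglia and both neuron classes. mt-Atp8, a small subunit of the ATP synthase, is read from 1 transcript with mt-Atp6, with which it shares 43 of its 204 bases. mt-Nd4l, a small subunit of complex I, shares 7 of its 297 bases with mt-Nd4, and reads of such pairs may be divided between the genes by the counting. In astrocytes mt-Atp8 stood at 10.7 and 19.4 CPM in PFC CTRL, 25.5, 70.4 and 80.6 CPM in PFC DTA, 39.1 (CTRL) and 80.8 CPM (DTA) in MC. The 3 PFC DTA values lay above both PFC CTRL values, PFC DTA 1 only slightly so, and the log2 difference was 2.06 ± 0.44 (adjusted p = 0.999 by edgeR's quasi-likelihood test).

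For mt-Nd4l in astrocytes the values were 53.6 and 26.5 CPM in PFC CTRL, 58.7, 123 and 121 CPM in PFC DTA, 68.0 (CTRL) and 84.6 CPM (DTA) in MC (log2 difference 1.54 ± 0.41, adjusted p = 0.999 by edgeR's quasi-likelihood test). In microglia the log2 differences were 2.37 for mt-Atp8 and 1.5 for mt-Nd4l, in inhibitory neurons 1.16 and 0.90, and in excitatory neurons 1.36 and 0.94. PFC DTA 2 and PFC DTA 3 were the high libraries in these classes, and PFC DTA 1 lay close to PFC CTRL. This order was not particular to the overlapping pairs. mt-Nd3, which overlaps no other member, had 152 and 89.5 CPM in PFC CTRL microglia and 174, 394 and 289 CPM in PFC DTA microglia. The nuclear Atp5k had 386 and 273 CPM in PFC CTRL astrocytes and 418, 667 and 548 CPM in PFC DTA astrocytes. As a share of mt-Atp8 and mt-Atp6 together, mt-Atp8 took 0.0966% and 0.183% in PFC CTRL astrocytes and 0.192%, 0.587% and 0.676% in PFC DTA astrocytes, with 0.265% (CTRL) and 0.545% (DTA) in MC. These levels rest on few counts, 403 in all 7 astrocyte sums. Without a filter on low counts mt-Atp8 was called in astrocytes, inhibitory neurons, microglia and oligodendrocytes, and mt-Nd4l in astrocytes and oligodendrocytes. Leaving out PFC CTRL 1 brought calls in oligodendrocytes, inhibitory neurons and oligodendrocyte precursors, and leaving out PFC CTRL 2 brought calls in oligodendrocytes. Each of these fits keeps 1 PFC CTRL library, so their calls are not counted here. The share of all genes called in these settings and without the filter is not given, so the calls do not single out the set.

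**Figure D3:**
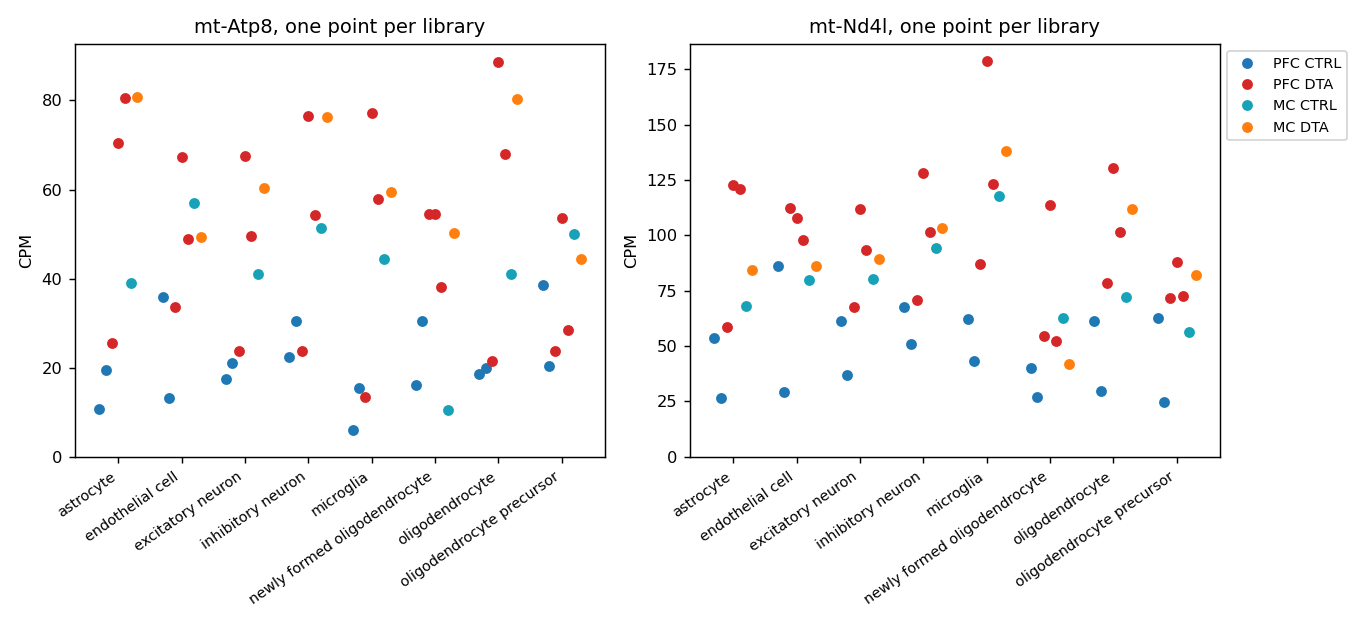
CPM of mt-Atp8 and mt-Nd4l by class, 1 point per library, coloured by area and genotype. In astrocytes the 2 PFC CTRL libraries lie at 10.7 and 19.4 CPM of mt-Atp8 and the 3 PFC DTA libraries at 25.5 to 80.6 CPM.

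Other members were also among those with the smallest p. Atp5k, a small membrane subunit of the ATP synthase, stood at 192 and 128 CPM in PFC CTRL and 228, 320 and 265 CPM in PFC DTA endothelial cells (log2 0.80 ± 0.28). It differed by 0.88 in newly formed oligodendrocytes and 0.70 in oligodendrocyte precursors, and mt-Nd3 differed by 1.38 in newly formed oligodendrocytes and Ndufa5 by 0.68 in oligodendrocytes. In the lower direction no member had an unadjusted p under 0.05 among those with the smallest p. In inhibitory neurons mt-Nd1 was -0.40 and mt-Cytb -0.38, with 4997 ± 6 CPM of mt-Cytb in PFC CTRL and 3712 ± 642 CPM in PFC DTA. The others were between -0.15 and -0.43: Atp5d and Ndufs8 in astrocytes, Ndufv2 and Atp5o.1 in endothelial cells, Atp5s and mt-Nd1 in excitatory neurons, Uqcrfs1 and Ndufs3 in microglia, Ndufab1 and Sdhc in newly formed oligodendrocytes, Sdhb in oligodendrocytes and Ndufb5 and Ndufb9 in oligodendrocyte precursors.

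The median differences of the mitochondrial members were positive in 7 of 8 classes (0.27 in astrocytes, 0.29 in microglia, 0.03 in excitatory neurons) and -0.22 in inhibitory neurons. Depth was not balanced over the PFC libraries. Among the deep ones (PFC DTA 2 against PFC CTRL 1) and the shallow ones (PFC DTA 1 and 3 against PFC CTRL 2), a division made after the depths had been seen, the astrocyte median was 0.32 and 0.27. In inhibitory neurons the mitochondrial median was 0.01 and -0.44 and the nuclear median -0.14 and 0.45. In excitatory neurons these were 0.32 and -0.11, and -0.07 and 0.30. In oligodendrocyte precursors the mitochondrial median was 0.37 and -0.14, with 12 and 3 of 12 members positive. In microglia it was 0.37 and 0.06, and the nuclear median was 0.15 and -0.21. The nuclear median was -0.03 and 0.135 in astrocytes and 0.02 and -0.07 in endothelial cells. The mitochondrial medians of both neuron classes and oligodendrocyte precursors thus differed in sign between the deep and the shallow libraries. So did the nuclear medians of both neuron classes, microglia, astrocytes and endothelial cells.

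Motor cortex was compared with PFC in 7 classes with genotype as a term, 2 libraries against 5. No member passed in any class, while 0.217% of all genes were called in astrocytes, 5.41% in excitatory neurons, 2.18% in inhibitory neurons, 0.0106% in oligodendrocytes, and 0% in endothelial cells, microglia and oligodendrocyte precursors (edgeR's quasi-likelihood test). At an unadjusted p under 0.05 there were 11 of 93 members in astrocytes, 11 of 91 in inhibitory neurons and 3 of 93 in excitatory neurons. There were 3 each in oligodendrocytes and oligodendrocyte precursors, and 0 in endothelial cells and microglia. Over all genes this held for 801 of 10116 in astrocytes, 1767 of 11595 in inhibitory neurons and 2524 of 14179 in excitatory neurons. It held for 281 of 9390 in oligodendrocytes, 259 of 6920 in oligodendrocyte precursors, 120 of 8131 in endothelial cells and 83 of 7427 in microglia. DESeq2 called 1 member in astrocytes and 1 in excitatory neurons, and the share of all genes it called is not given. The differences of the mitochondrial members were mostly positive: 12 of 12 in astrocytes, microglia, inhibitory neurons, oligodendrocytes and oligodendrocyte precursors, 11 of 12 in endothelial cells and 12 of 13 in excitatory neurons. Their median log2 difference was 0.52 in astrocytes, 0.42 in microglia, 0.37 in oligodendrocyte precursors, 0.34 in inhibitory neurons, 0.32 in oligodendrocytes, 0.28 in excitatory neurons and 0.22 in endothelial cells. The nuclear medians lay between -0.05 in inhibitory neurons and 0.16 in oligodendrocytes. The make-up of the excitatory class differed between the areas. Cells named layer 4/5 excitatory neurons numbered 346 (CTRL) and 126 (DTA) in MC and at most 9 in a PFC library. Layer 5 extratelencephalic neurons numbered 15 and 9 in MC and 35 to 300 in PFC. The part of this make-up in the difference was not tested.

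Both MC libraries lay above all 5 PFC libraries for 7 of 12 mitochondrial members in astrocytes (5.97% of all genes) and 7 of 12 in microglia (3.23%), the same 7 in both: mt-Atp6, mt-Co1, mt-Co2, mt-Co3, mt-Cytb, mt-Nd1 and mt-Nd4. The count was 2 in excitatory neurons (11.9%), 2 in inhibitory neurons (9.65%), 1 in oligodendrocytes (2.29%), and 0 in endothelial cells (2.5%) and oligodendrocyte precursors (3.71%). For mt-Co1, the catalytic core of complex IV, the astrocyte values were 4604 and 4410 CPM in PFC CTRL, 4504, 5973 and 5003 CPM in PFC DTA, 7839 (CTRL) and 7989 CPM (DTA) in MC. The 2 areas do not overlap there, and the log2 difference was 0.72 ± 0.21 (adjusted p = 0.316 by edgeR's quasi-likelihood test).

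More astrocytes stood near the ceiling of 10% in MC: 23.0% and 22.6% of them had over 8% of their counts in mt- genes, against 2.46% to 10.4% in PFC. Junb, a dissociation gene, was lower in MC astrocytes (log2 -1.5, adjusted p = 0.0178 by edgeR's quasi-likelihood test). The part of the ceiling and of dissociation in the difference was not tested. Within CTRL alone the mitochondrial median was 0.66 in astrocytes and 0.62 in microglia, and within DTA alone 0.40 and 0.26. In endothelial cells it was 0.44 within CTRL and -0.04 within DTA.

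Cox6a2 was the nuclear member closest to a call. In inhibitory neurons the 2 MC libraries (250 and 232 CPM) lay above all 5 PFC libraries (169 to 188 CPM), with a log2 difference of 0.43 ± 0.14 (adjusted p = 0.116 by edgeR's quasi-likelihood test). The MC values of Pvalb interneurons alone, 450 and 439 CPM, lay inside the PFC range of 414 to 497 CPM. Pvalb interneurons made up 166 of 679 and 69 of 245 inhibitory cells in MC, and 45 of 152, 294 of 1162, 21 of 117, 74 of 292 and 47 of 256 in PFC. Lamp5 interneurons, the next highest in Cox6a2, made up 196 of 679 and 55 of 245 in MC. In PFC they made up 22 of 152, 201 of 1162, 24 of 117, 48 of 292 and 38 of 256. The part of this make-up in the difference was not tested. In excitatory neurons Cox6a2 was 0.33 to 3.52 CPM in PFC and 7.97 and 5.98 CPM in MC (adjusted p = 0.0536 by edgeR's quasi-likelihood test), beside 5.31 to 27.0 CPM of the 7 inhibitory markers in PFC and 24.2 and 7.69 CPM in MC. It passed with DESeq2, without the robust option, with doublets kept, or without PFC CTRL 1 or PFC CTRL 2.

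Of the other members with the smallest p, Atp5k was 0.73 ± 0.23 in astrocytes, 0.63 in oligodendrocytes and 0.54 in endothelial cells. Ndufc2 was -0.53 ± 0.17 in inhibitory neurons, at 568 to 774 CPM in PFC and 379 and 528 CPM in MC, and Sdhd was -0.40 there. The remaining ones ran from -0.84 (Cox6b2 in astrocytes) to 0.72 (mt-Nd3 in microglia), with adjusted p between 0.207 and 1.

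**Figure D4:**
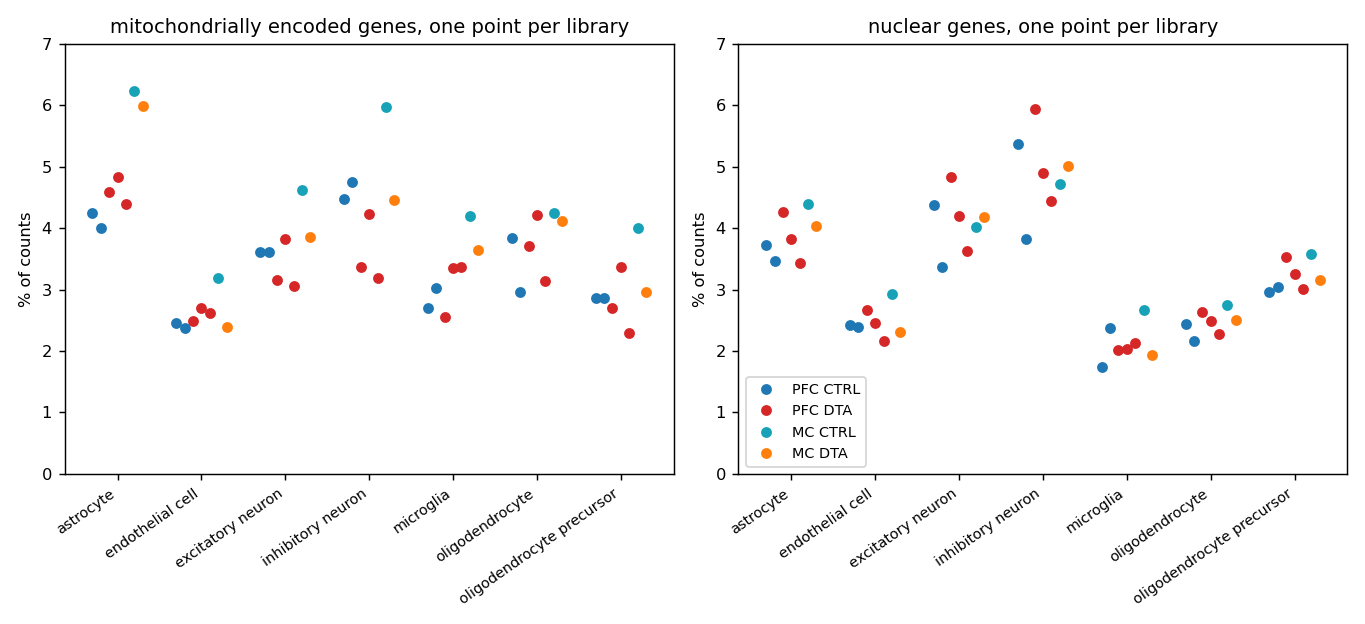
Percent of counts in mitochondrially encoded and in nuclear respiratory chain genes by class, 1 point per library, coloured by area and genotype. In astrocytes the 2 MC libraries (6.24% and 6.0%) lie above all 5 PFC libraries (4.0% to 4.84%) in the mitochondrial part.

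In motor cortex each genotype had 1 library, so the difference has no replicate check and no test. The median log2 ratio of DTA over CTRL for the mitochondrial members was -0.35 in inhibitory neurons and in endothelial cells, -0.44 in oligodendrocyte precursors, -0.20 in newly formed oligodendrocytes, -0.15 in excitatory neurons and in microglia, 0.02 in astrocytes, 0.03 in oligodendrocytes and 0.13 in pericytes. The nuclear medians were -0.45 in microglia, -0.32 in endothelial cells, -0.23 in pericytes and 0.15 in inhibitory neurons, and over all genes the medians lay between -0.06 and 0.07. For mt-Co3 in inhibitory neurons the level was 11590 CPM in CTRL and 7677 CPM in DTA, a log2 ratio of -0.59 with a Poisson interval of -0.62 to -0.57 that covers counting error only. For mt-Atp8 the CPM was higher in the DTA library of astrocytes (1.05, interval 0.50 to 1.62), excitatory neurons (0.56, 0.40 to 0.71) and inhibitory neurons (0.57, 0.26 to 0.89), and not in endothelial cells (-0.21, -0.85 to 0.45). The same held for Atp5g3 in astrocytes (0.58), excitatory (0.48) and inhibitory neurons (0.64), while Cox7b had a lower CPM in microglia (-1.06) and endothelial cells (-0.76). In pericytes Ndufa4 was -1.99 (80 and 23 counts) and Cox4i2 0.81 (75 and 150 counts).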

How the data were processed

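The authors deposited 7 tables of whole-number UMI counts per gene and cell. The submitters' processing notes name Cell Ranger 3.0.2, Seurat and mm10 without their roles. Doublets were removed with Scrublet scores from scanpy 1.11.5 (23 to 443 cells per library; in PFC DTA 3 the caller marked 0, and the 295 cells with the highest scores were taken), cells were clustered with leidenalg 0.10.2 at a resolution of 1.0 on 2000 variable genes, and clusters were named from marker lists. Counts were summed per library and class (at least 20 cells, or 30 for the genotype and area comparisons), and genes were kept by filterByExpr with a minimum of 10. In R 4.3.3 with edgeR 4.0.16, TMM factors and a robust quasi-likelihood fit were used, with Benjamini-Hochberg adjustment over all genes at 0.05. Library was a term between classes. DESeq2 1.42.0 was an alternative. CPM are counts of a gene per 1e6 counts of a sum. The script was tested on simulated data. Members and gene lists were chosen with earlier results of these data known. Named in the class contrasts were the 3 called nuclear members of at least 20 CPM with the greatest fold in each direction, in the PFC genotype and area comparisons the 2 with the smallest p each way per class, and all isoform families. A member that this rule names is not reported here. Near-identical copies elsewhere in the genome may take reads from a member.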

Additional observations from a re-analysis of the deposited data

Results flagged for a closer look

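In 3 shares every PFC DTA library lay on one side of both PFC CTRL libraries while the MC DTA library lay on the other side of the MC CTRL library, and the difference between the areas was not tested. The mitochondrial share of astrocytes was 0.482 percentage points higher in PFC DTA than in PFC CTRL on average (4.60%, 4.84% and 4.39% against 4.25% and 4.0%) and differed by -0.238 points in MC (6.0% against 6.24%). The mitochondrial share of endothelial cells was 0.19 points higher in PFC DTA (2.48%, 2.71% and 2.62% against 2.46% and 2.37%) and differed by -0.785 points in MC (2.40% against 3.18%). The nuclear share of newly formed oligodendrocytes was 0.387 points higher in PFC DTA (3.69%, 3.29% and 3.26% against 3.20% and 2.85%) and differed by -0.171 points in MC (3.24% against 3.42%). MC had 1 library per genotype, so its differences have no spread. The number of shares looked at is not given beside these 3, so they do not single out these classes.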

How the results depend on the processing

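The counts of members called between classes and subclasses stayed within 1.5 times of the values given under the other scalings, DESeq2, kept doublets, other resolutions and members kept for clustering, except for Sst interneurons (21, and 13 without a filter on low counts). Endothelial cells and newly formed oligodendrocytes could not be named at resolution 0.5, and with doublets kept newly formed oligodendrocytes had too few cells for the genotype comparison. Leaving out 1 library each gave 7 to 12 called members in Cnr1 and Sncg interneurons, 20 to 31 in Lamp5 interneurons and 12 to 26 in Sst interneurons. In the PFC genotype comparison, where 0 members were called, the filter left out gave 2 in astrocytes, 1 in inhibitory neurons, 1 in microglia and 2 in oligodendrocytes, and leaving out 1 library gave 0 to 1 in inhibitory neurons, 0 to 8 in oligodendrocytes and 0 to 1 in oligodendrocyte precursors. Whether the numbers 1 and 2 shared by PFC CTRL and PFC DTA pair the libraries was not settled. The deviations of 2 CTRL libraries from their mean are exact opposites, so their correlations (-0.198 to 0.31) cannot decide it. Those of number 1 ran from 0.039 in oligodendrocyte precursors to 0.31 in microglia. They lay above the crossed ones except in oligodendrocyte precursors (0.039 against 0.086). The replicate block gave 3 called members in inhibitory neurons, 2 in microglia and 1 in newly formed oligodendrocytes. Between areas, where 0 were called, the filter left out gave 1 in astrocytes and 2 in inhibitory neurons, DESeq2 gave 1 in astrocytes and 1 in excitatory neurons, the test without the robust option gave 1 and kept doublets gave 1 in excitatory neurons, and leaving out 1 library gave 0 to 1 in excitatory and 0 to 2 in inhibitory neurons. For the genotype and area comparisons the share of all genes called under these settings is not given, so these calls do not single out the set. The area medians within CTRL alone were 0.66 (mitochondrial) and 0.23 (nuclear) in astrocytes, 0.44 and 0.21 in endothelial cells and 0.36 (nuclear) in microglia. Within DTA alone they were -0.04 and -0.06 in endothelial cells, 0.13 and -0.03 in oligodendrocyte precursors and 0.02 (nuclear) in oligodendrocytes. Leaving out 1 library turned signs for Atp5d in astrocytes between genotypes (-0.35 to 0.02, positive without PFC CTRL 2) and, between areas, without MC CTRL 1 for Sdhd in astrocytes (-0.4 to 0.01) and Atp5k in endothelial cells (-0.04 to 1.16). The mitochondrial share of smooth muscle cells was 5.07% as a mean over cells and 5.10% in cells thinned to 1000 counts, and the MC ratio of excitatory neurons was -0.12 with TMM. The cause of these shifts was not tested. Depth limits mt-Atp8, mt-Nd4l and the isoforms of rare classes, which rest on few counts.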
